A study of Mus musculus with 16 samples.

Results

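The wound-activated keratins Krt6a, Krt6b, Krt16 and Krt17 were followed through healing skin wounds of diabetic and wild-type mice. Their probes were all those on the array whose transcript accession belongs to any of these gene symbols in RefSeq, a rule that used no measured value. The rule gave 5 probes for 4 genes, of 39429 probes and 20828 gene symbols on the array. Krt6a had probe A_52_P104658, Krt16 had A_55_P2007756, Krt17 had A_55_P1981994, and Krt6b had both A_66_P101935 and A_51_P126275.

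The study asked how estrogen applied to the skin changes wound healing in type 2 diabetes. Round full-thickness wounds of 4 mm were made on the backs of female mice, 2 to each mouse, and RNA from the homogenized wound together with adjoining unwounded skin was hybridized to 1-colour Agilent arrays. The WT group was C57BL/6J mice aged 10 to 12 weeks with untreated wounds. The db/db group was C57BLKS/J Iar-+Leprdb/+Leprdb mice aged 10 weeks, homozygous for a mutant leptin receptor and diabetic, also with untreated wounds. The db/db + estrogen group was mice of the same diabetic strain and age whose wounds received estradiol benzoate in sesame oil each day (0.75 µg/g/day). The db/db + vehicle group was the same diabetic mice given sesame oil alone. Each of the 8 groups (4 treatments, with wounds labelled day 7 or day 14) had 2 arrays, which makes 16. WT and db/db mice differed in strain background as well as in the leptin receptor, so those factors cannot be told apart, and every mouse given estrogen or oil carried the mutant receptor. The days are given as the arrays are labelled. Whether the labelled days of the arrays or those of the study's own lists were exchanged was not settled, as the processing notes describe, so each contrast between days may run the other way in time. All arrays of a labelled day were also scanned together, so day and scan cannot be told apart.

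Keratins are the intermediate filament proteins of epithelial cells, and a filament is built from pairs of a type II and a type I chain. Basal keratinocytes make Krt5 with Krt14, and cells that move up into the spinous layer switch to Krt1 with Krt10. After injury, keratinocytes at the wound margin switch on Krt6a and Krt6b (type II) with Krt16 and Krt17 (type I), which makes these genes the textbook markers of the activated, migrating epidermis. Uninjured skin also makes them in parts of the hair follicle and in the nail.

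Levels are given as log2 of the background-subtracted signal minus log2 of the 75th percentile of the same array, so that 0 is the 75th percentile of that array. A probe's level was compared with the same probe on other arrays. Levels of different probes stand side by side only as terms of a sum over a gene list, where how brightly each probe binds also sets which term is largest. The 5 probes had 1 spot each, were well above background on all 16 arrays and were never saturated. A probe was called where a limma fit over all arrays gave an unadjusted two-sided p under 0.05 and a fold change of at least 2, the study's thresholds, and adjusted p-values are Benjamini-Hochberg values over all probes tested in a comparison. The 2 arrays of a group are described as biological replicates, and with 2 against 2 an exact permutation test cannot give p below 0.333, so the p-values rest on the spread pooled over all groups.

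For Krt6a, Krt6b and Krt16, both db/db + estrogen arrays labelled day 7 lay below all 14 other arrays. Against wounds of the same label, Krt16 was lower by 7.07-fold than in untreated db/db and by 13.0-fold than with oil alone. In the same order, Krt6b was lower by 32.8-fold and 59.8-fold at A_66_P101935, and by 6.14-fold and 11.6-fold at A_51_P126275. Krt17 was lower by 4.15-fold than with oil and was not called against untreated db/db. Of the basal keratins, Krt14 was called in neither comparison, Krt5 was called higher against untreated db/db (1.06) and not against oil (0.34), and Krt15 was called higher in both (3.31 and 2.31). The Krt5 call was absent without estrogen replicate 1. Against oil, Krt15 had an adjusted p of 0.196 in limma and was not called without oil replicate 1 or either estrogen array. In the estrogen wounds labelled day 14 no member was called against any group of the same label but untreated db/db. Krt17 was also the member whose level in untreated db/db wounds labelled day 14 was below WT at an adjusted p under 0.05. With the slide as a fixed block it did not pass the adjusted p, and keratinocyte markers were also called lower in that comparison. Since whole wounds were homogenized, fewer activated keratinocytes and less keratin RNA in each cell cannot be told apart.

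Among the type II chains, Krt6a is an injury-induced partner of Krt16 and Krt17. On arrays labelled day 7 its level was 3.24 and 3.40 in WT, 3.23 and 3.37 in db/db, 0.29 and 0.14 in db/db + estrogen, and 5.26 and 2.93 in db/db + vehicle. On arrays labelled day 14 it was 5.07 and 3.79 in WT, 2.90 and 4.66 in db/db, 4.93 and 3.47 in db/db + estrogen, and 5.01 and 4.56 in db/db + vehicle. Both estrogen arrays labelled day 7 were lower than the other 14, and no other group stood clear of its neighbours. From the lowest group upward, the means were 0.21 ± 0.11 (SD, n = 2) in db/db + estrogen labelled day 7, 3.30 ± 0.10 in db/db and 3.32 ± 0.11 in WT labelled day 7, and 3.78 to 4.78 in the other 5 groups. The oil-treated arrays labelled day 7 had the widest spread, with an SD of 1.65.

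Krt6b, the close relative of Krt6a, was read by both of its probes. At A_66_P101935 the level on arrays labelled day 7 was 6.82 and 6.91 in WT, 6.36 and 6.21 in db/db, 0.49 and 2.00 in db/db + estrogen, and 7.78 and 6.52 in db/db + vehicle. The arrays labelled day 14 gave 7.60 and 7.40 in WT, 6.23 and 7.26 in db/db, 7.81 and 7.14 in db/db + estrogen, and 7.66 and 7.47 in db/db + vehicle. The estrogen arrays labelled day 7 were again the lowest, and their mean of 1.25 ± 1.07 (SD, n = 2) was followed by 6.28 ± 0.11 in untreated db/db of the same label, after which neighbouring groups overlapped.

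At the other Krt6b probe, A_51_P126275, the levels on arrays labelled day 7 were 4.13 and 4.34 in WT, 3.57 and 3.13 in db/db, 1.02 and 0.45 in db/db + estrogen, and 5.10 and 3.43 in db/db + vehicle. Those labelled day 14 had levels of 4.83 and 6.35 in WT, 2.58 and 4.34 in db/db, 4.97 and 4.42 in db/db + estrogen, and 4.93 and 4.76 in db/db + vehicle. Both probes placed estrogen wounds labelled day 7 lowest (mean 0.74 ± 0.40 here, SD, n = 2). In estrogen wounds labelled day 7, replicate 1 was above replicate 2 at this probe and below it at the other (0.49 and 2.00). The probes also parted at WT replicate 2 labelled day 14, which was above replicate 1 at this probe and slightly below it at the other. The SD of the difference between probes was 1.47 in that estrogen group and 1.22 in WT labelled day 14. Krt6a and Krt6b are nearly identical in sequence, so some of the signal at any of the 3 Krt6 probes may come from the other gene, and the genes are uncertain as separate measurements.

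Krt16, the type I partner of the Krt6 chains, had the smallest spread between replicates in the estrogen wounds labelled day 7 after Krt6a. Its level was 7.22 and 7.65 in WT, 6.72 and 6.63 in db/db, 3.70 and 4.0 in db/db + estrogen, and 7.92 and 7.19 in db/db + vehicle on arrays labelled day 7. Among arrays labelled day 14 it was 7.64 and 8.01 in WT, 6.09 and 7.28 in db/db, 7.67 and 7.16 in db/db + estrogen, and 7.56 and 7.48 in db/db + vehicle. The order of group means was 3.85 ± 0.21 (SD, n = 2) in db/db + estrogen labelled day 7, 6.67 ± 0.07 and 6.69 ± 0.85 in untreated db/db labelled day 7 and day 14, and 7.42 to 7.83 in the other 5 groups. The step from the first to the second was larger than the spread, and the next neighbours did not differ beyond theirs.

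Krt17, which in mouse skin also marks developing hair follicles and the outer root sheath, had a different order. In wounds labelled day 7 its level was 5.99 and 6.10 in WT, 5.02 and 5.26 in db/db, 4.74 and 3.83 in db/db + estrogen, and 6.67 and 6.02 in db/db + vehicle. In wounds labelled day 14 it was 7.05 and 5.98 in WT, 4.73 and 4.82 in db/db, 6.61 and 5.44 in db/db + estrogen, and 6.38 and 6.54 in db/db + vehicle. The lowest means were 4.29 ± 0.64 (SD, n = 2) in db/db + estrogen labelled day 7, 4.77 ± 0.06 in db/db labelled day 14 and 5.14 ± 0.17 in db/db labelled day 7, and the other 5 groups lay between 6.03 and 6.51. The 2 untreated db/db groups and the estrogen group labelled day 7 together were therefore the low groups for this gene, and estrogen replicate 1 reached the level of untreated db/db labelled day 14.

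**Figure D1:**
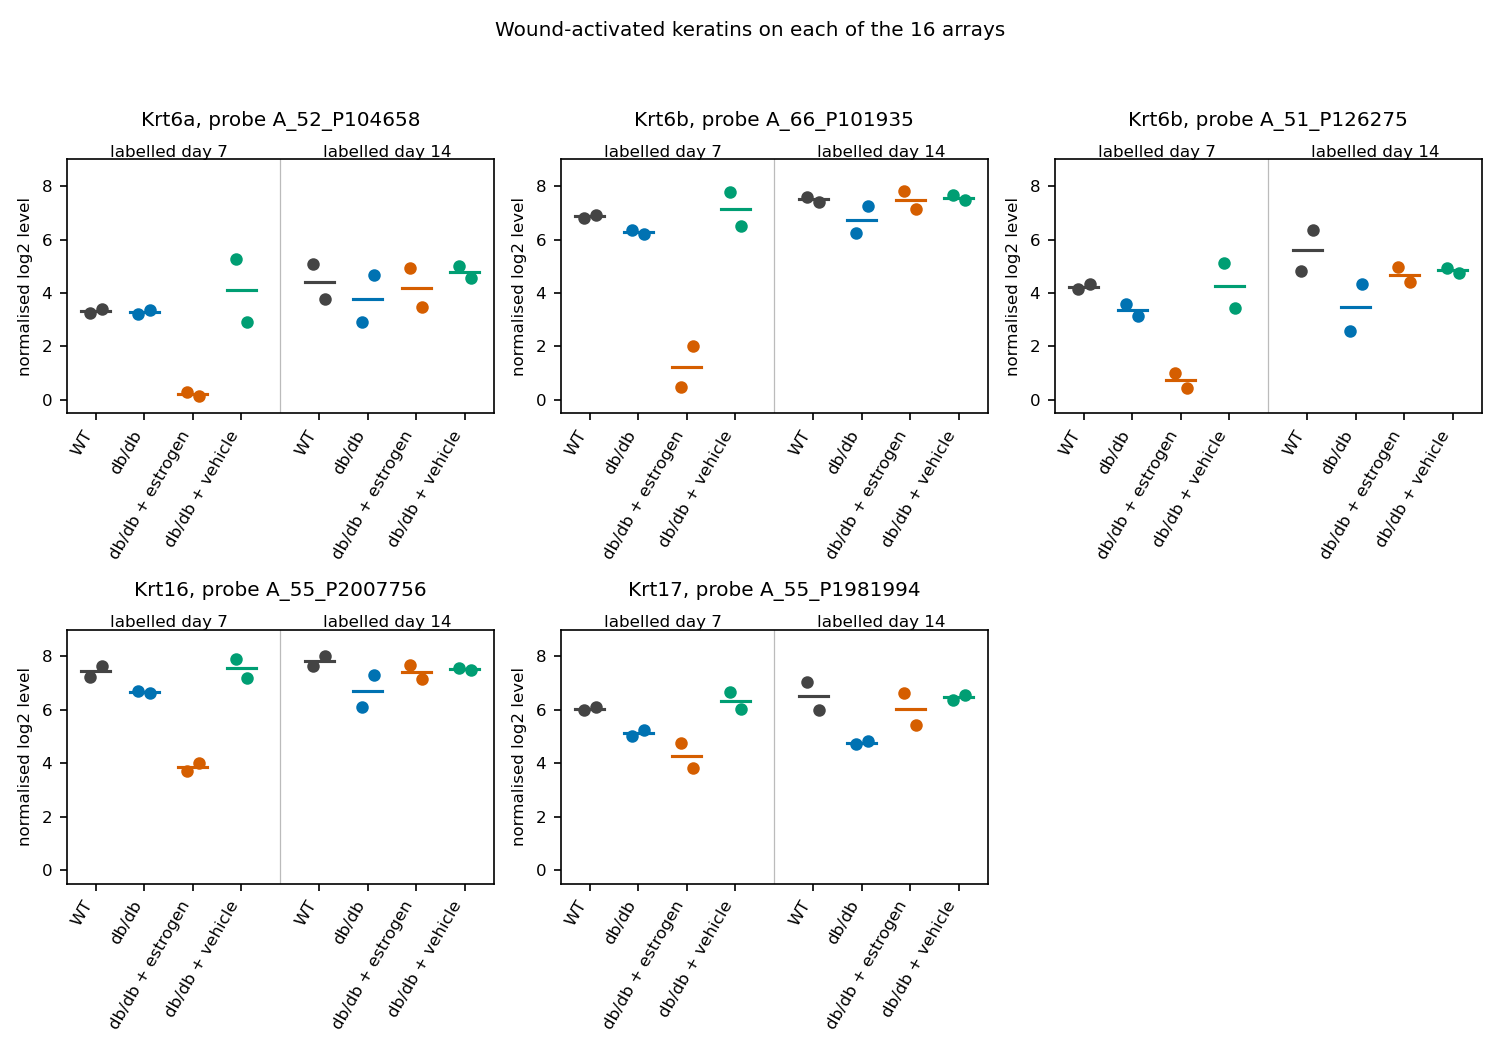
Level of each wound-activated keratin probe (log2 signal relative to the 75th percentile of its array) on the 16 arrays, by treatment and labelled day, with points for arrays and horizontal bars for the mean of the 2 arrays of a group. The estrogen arrays labelled day 7 lie lowest for Krt6a, Krt6b and Krt16 (3.70 and 4.0 for Krt16), and for Krt17 they lie near untreated db/db (4.74 and 3.83 against 5.02 and 5.26).

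The comparison of db/db + estrogen with db/db + vehicle asks what estrogen adds to its oil. On arrays labelled day 7, Krt6a was lower with estrogen by 14.7-fold (log2 difference -3.88, SE 0.80, 95% interval -5.68 to -2.09, adjusted p = 0.0354 in limma). Krt6b was lower by 59.8-fold at A_66_P101935 (-5.90, SE 0.54, -7.10 to -4.70, adjusted p = 0.0017) and by 11.6-fold at A_51_P126275 (-3.53, SE 0.69, -5.06 to -2.00, adjusted p = 0.0286). All 3 intervals lie well below 0, and no estrogen array reached any oil array.

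The type I chains fell as well. Krt16 was lower by 13.0-fold (-3.70, SE 0.38, -4.55 to -2.86, adjusted p = 0.00288) and Krt17 by 4.15-fold (-2.05, SE 0.45, -3.07 to -1.04, adjusted p = 0.0440). Thus 5 of 5 member probes were called lower, where 4.32% of 30150 tested probes were called lower, and all 5 also passed the adjusted p, where 1.26% did so in that direction. The arrays of both groups did not overlap for any member, which was also true of 58.8% of all probes, so the lack of overlap alone says little. The median difference was -3.70 over the members (-2.71 without oil replicate 1 and -4.37 without oil replicate 2) and 0.01 over all probes.

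The size of these differences leaned on single arrays. Without db/db + vehicle replicate 1 the Krt6a difference was -2.71 and that at Krt6b A_51_P126275 was -2.70, and without replicate 2 they were -5.05 and -4.37. The difference at Krt6b A_66_P101935 ranged from -6.66 to -5.15 and that of Krt16 from -4.07 to -3.34 as arrays were left out in turn. All 5 probes stayed called each time, but the number that passed the adjusted p was 2 (Krt16 and Krt6b A_66_P101935) without either estrogen array or without oil replicate 1, 4 without oil replicate 2, and 1 when the fit held only the 4 arrays compared.

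Against untreated db/db, estrogen wounds labelled day 7 were lower in the Krt6 chains and Krt16 and not called for Krt17. This comparison shares its estrogen arrays with the last, so the values are given side by side and are not separate evidence. The log2 difference was -3.09 for Krt6a (SE 0.80, adjusted p = 0.0538), -5.04 for Krt6b at A_66_P101935 (32.8-fold lower, SE 0.54, adjusted p = 0.00124), -2.62 for Krt6b at A_51_P126275 (SE 0.69, adjusted p = 0.0554) and -2.82 for Krt16 (7.07-fold lower, SE 0.38, adjusted p = 0.00358). For Krt17 it was -0.85 (95% interval -1.87 to 0.16, adjusted p = 0.342), which allows from no change to a fall of more than 2-fold, and it was -1.31 and called without estrogen replicate 1, and -0.40 and not called without estrogen replicate 2. In all, 4 of 5 probes were called lower against 4.71% of all probes, and 2 passed the adjusted p against 2.62%. The median was -2.82 over the members and 0.04 over all probes. Leaving out either estrogen array moved the difference at Krt6b A_66_P101935 to -5.79 or -4.28.

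Against WT, the same estrogen arrays were lower by -3.11 for Krt6a, -5.61 and -3.50 for Krt6b at A_66_P101935 and A_51_P126275, -3.58 for Krt16 and -1.76 for Krt17 on the log2 scale. All 5 probes were called lower, against 4.49% of all probes, and 3 passed the adjusted p in limma, against 1.72%, which became 2 when any of the 4 arrays was left out. Leaving out either estrogen array moved the difference at Krt6b A_66_P101935 to -6.37 or -4.86.

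**Figure D2:**
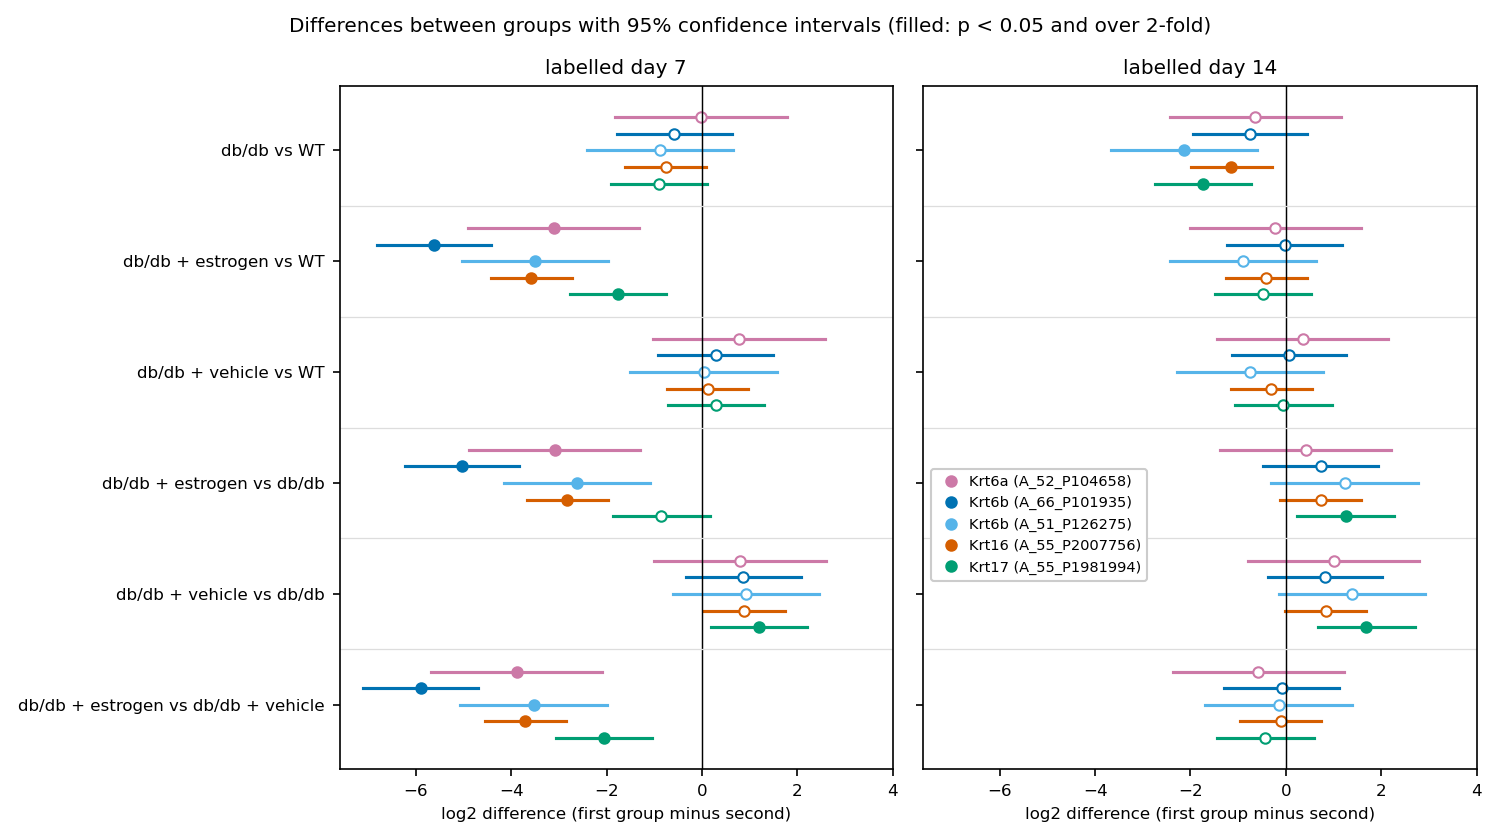
Log2 difference of each member probe in every comparison between groups within a labelled day (first group minus second), with 95% intervals from limma. Filled points were called at an unadjusted p under 0.05 and a fold change of at least 2. The points of the estrogen group labelled day 7 lie at -5.90 to -0.85 against the other groups of that label, and no other comparison held a point beyond -2.13 or 1.69.

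Among the groups without estrogen, wounds labelled day 7 gave few calls. No member probe was called between untreated db/db and WT, where the differences ran from -0.90 to -0.02 with a median of -0.76 (-0.05 over all probes) and 14.1% of all probes were called in either direction. Between db/db + vehicle and WT none was called either, with differences of 0.03 to 0.78 against 10.3% of all probes, though 1 was called without oil replicate 2.

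Oil-treated db/db wounds labelled day 7 were above untreated db/db at each member, by 0.80 to 1.20. Krt17 was called (1.20, unadjusted p = 0.0247 and adjusted p = 0.297 in limma), and Krt16 had an unadjusted p of 0.0432 with a difference of 0.88, which is under 2-fold. The count of 1 of 5 called higher stood beside 2.52% of all probes, and it rested on single arrays, since it was 0 without db/db replicate 1 or oil replicate 1 and 5 without oil replicate 2. The median was 0.88 over the members (0.23 without oil replicate 1 and 1.52 without oil replicate 2) and 0.05 over all probes.

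In wounds labelled day 14, untreated db/db lay below WT for part of the group. Krt17 was lower by -1.74 on the log2 scale (SE 0.45, adjusted p = 0.0260 in limma), Krt16 by -1.14 (adjusted p = 0.0615) and Krt6b at A_51_P126275 by -2.13 (adjusted p = 0.0551). Krt6b at A_66_P101935 (-0.75) and Krt6a (-0.65) were not called. So 3 of 5 were called lower where 15.6% of all probes were, and 1 passed the adjusted p where 12% did. The median was -1.14 over the members (-0.54 without db/db replicate 1 and -1.74 without db/db replicate 2) and -0.12 over all probes.

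These calls hung on a few arrays. Only 1 probe was called without db/db replicate 1 or without WT replicate 2, and 1 when only the 4 arrays compared were fitted. As single arrays were left out, the difference at Krt6b A_51_P126275 ran from -3.01 to -1.25. That at A_66_P101935, which was not called, ran from -1.27 to -0.24. Without db/db replicate 1 the difference of Krt16 was -0.54. Without WT replicate 1 that of Krt17 was -1.20. The number past the adjusted p was 0 without db/db replicate 1 and 2 without db/db replicate 2. Both db/db arrays of this label lay on 1 slide and both WT arrays on the next, so no value within a slide could be had. With the slide as a fixed block, estimated through the treated groups that lay on both, the Krt17 difference was -2.24 (SE 0.64, adjusted p = 0.0819 in limma), and 0 of the 3 called probes passed the adjusted p. With the slide as a random block 3 passed. The correlation of that block was negative (-0.092), which narrows the error of a contrast between slides, so this count does not offset the fixed block.

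Krt17 was also the member called in treated against untreated db/db wounds labelled day 14. With oil it was higher by 1.69 (adjusted p = 0.131), and the members ranged from 0.82 to 1.69 with a median of 1.00 (0.31 without db/db replicate 1 and 1.73 without db/db replicate 2), against 0.06 over all probes. With estrogen it was higher by 1.26 (adjusted p = 0.436), and the members ranged from 0.42 to 1.26 with a median of 0.73 (0.22 and 1.30 without these same arrays), against 0.05 over all probes. These comparisons share the untreated arrays, and 1 of 5 was called higher in each where 5.31% and 2.56% of all probes were. Within the slide that held both untreated arrays, Krt17 was higher by 1.61 with oil and by 1.84 with estrogen, with 1 treated array each. As single arrays were left out, the Krt17 difference with estrogen ran from 0.67 to 1.84. With oil, 3 were called without db/db replicate 2. With estrogen, none was called without db/db replicate 1, without estrogen replicate 1 or with only the 4 arrays compared, and 2 were called without db/db replicate 2.

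No member was called in the remaining comparisons of wounds labelled day 14. Estrogen differed from oil by -0.58 to -0.09 (0.984% of all probes called), estrogen from WT by -0.90 to -0.02 (13.3%), and oil from WT by -0.75 to 0.35 (13.4%). The interval for Krt16 between estrogen and oil ran from -0.96 to 0.74, which leaves room for a change of either sign.

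Between the labelled days, the activated keratins moved in the estrogen group. Krt6a was higher on arrays labelled day 14 by 3.99 (adjusted p = 0.0162), Krt6b by 6.23 at A_66_P101935 (75.1-fold, adjusted p = 0.00128) and by 3.96 at A_51_P126275 (adjusted p = 0.0105), Krt16 by 3.57 (adjusted p = 0.00238) and Krt17 by 1.74 (adjusted p = 0.0370). All 5 were called higher against 3.05% of all probes, and all 5 passed the adjusted p against 1.89%, with no overlap between days (63.8% of all probes). The number past the adjusted p was 2 without estrogen replicate 1 or 2 labelled day 7 or replicate 1 labelled day 14, and 3 with only the 4 arrays compared. The Krt6a difference ran from 3.26 to 4.72 and that at Krt6b A_66_P101935 from 5.47 to 6.99 as single arrays were left out.

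In the other 3 treatments no member was called between days. The differences ran from 0.40 to 1.36 in WT (4.32% of all probes called in either direction), from -0.37 to 0.48 in db/db (12.6%) and from -0.03 to 0.69 in db/db + vehicle (11.7%). In WT 1 was called without replicate 1 labelled day 14, and in db/db + vehicle 1 was called without replicate 1 labelled day 7.

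Whether the effect of estrogen differed between labelled days was tested as an interaction, the difference labelled day 14 minus that labelled day 7. Against untreated db/db it was 5.77 for Krt6b at A_66_P101935 (SE 0.76, adjusted p = 0.0395) and 3.55 for Krt16 (SE 0.54, adjusted p = 0.0535), and the other 3 probes gave 2.11 to 3.85 with adjusted p of 0.207 to 0.305. As single arrays were left out, it ran from 5.01 (without estrogen replicate 1 labelled day 7) to 6.52 at Krt6b A_66_P101935, from 2.95 to 4.15 for Krt16 and from 2.97 to 4.73 at Krt6b A_51_P126275, the lowest value of the latter pair being that without db/db replicate 1 labelled day 14. All 5 passed the unadjusted p and fold thresholds, as 3.86% of all probes did with a positive sign, and 1 passed the adjusted p, as 0.0789% did. That 1 call was absent without estrogen replicate 1 of either labelled day, db/db replicate 2 labelled day 7 or db/db replicate 1 labelled day 14, and a second joined it without estrogen or db/db replicate 2 labelled day 14. Against oil the interaction at Krt6b A_66_P101935 was 5.81 (adjusted p = 0.0633), and none passed the adjusted p, while all 5 passed the unadjusted thresholds beside 3.21% of all probes. Leaving out estrogen replicate 2 of either labelled day gave 1 past the adjusted p, and leaving out oil replicate 2 labelled day 7 gave 2.

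The members moved together over the 16 arrays, with Krt17 the loosest. As a description over arrays that share groups and a scaling, Pearson's r was 0.97 between Krt16 and Krt6b at A_66_P101935, 0.91 between Krt16 and Krt6a, and 0.89 between the Krt6b probes. Krt17 correlated with the others at 0.71 to 0.79. Over the 14 arrays without the estrogen group labelled day 7, a choice made after seeing the data, the correlations among members ran from 0.62 to 0.92. On arrays labelled day 14 alone they ran from 0.45 (Krt6a with Krt6b at A_51_P126275) to 0.96 (Krt16 with that same Krt6b probe). There, no pair with Krt17 was the loosest.

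By a rule of likeness (Pearson's r over the 16 arrays, among 21294 probes well above background on at least 12 of them), the genes nearest to Krt6a were Gm5476 (0.999), Gjb2 (0.970), Gm5478 (0.965), Klk12 (0.965) and Pxdc1 (0.959). Those nearest to Krt6b were Gm5478 (0.991), Sprr2i (0.968), Sprr1b (0.958), S100a8 (0.957) and Gjb2 (0.957), and those nearest to Krt16 were Gm5478 (0.966), Stfa1 (0.962), Sprr1b (0.956), Tmprss11a (0.948) and Gjb2 (0.946). Gjb2 codes for the gap junction protein connexin 26, and Sprr1b and Sprr2i for small proline-rich proteins of the cornified envelope. Gm5476 and Gm5478 are transcribed pseudogenes that lie beside Krt6b in RefSeq's order of genes, so signal at their probes may come from the Krt6 genes, and their likeness is uncertain.

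Krt17 was nearest to a set that none of the other members shared, namely Dntt (0.932), Tmem125 (0.931), Ehf (0.926), an ETS transcription factor of epithelia, Fmnl2 (0.922) and Cdk5r1 (0.920). Gjb2 and Gm5478 were named for 3 members each and Sprr1b for 2. Without the estrogen arrays labelled day 7, r with Gjb2 was 0.90 for Krt6a, 0.88 for Krt6b and 0.71 for Krt16, r of S100a8 with Krt6b was 0.22, and the 5 genes named for Krt17 kept r of 0.88 to 0.96.

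The keratin genes lie in a type II and a type I cluster. Of the 20 protein-coding genes nearest to the members in these clusters, 4 were called higher and 1 lower with estrogen against oil on arrays labelled day 7, while 15 were not called, where 4.66% of all probes were called higher and 4.32% lower. Against untreated db/db 7 of the 20 were called higher and none lower, where 5.22% of all probes were called higher and 4.71% lower. Against WT of the same label none was called, where 3.64% of all probes were called higher and 4.49% lower. In the type II cluster, Krt5, which follows Krt6a, differed from oil by 0.34 and was not called. Krt75, the companion layer keratin of the hair follicle, was higher by 1.86 and Krt71, an inner root sheath keratin, by 4.40, and both were called, as was Krt82, a hair keratin (2.58). Krt84, another hair keratin of this cluster, was the 1 called lower (-1.62), and it was not called without estrogen replicate 2 (-1.06) or oil replicate 2 (-1.06). In the type I cluster, where Krt16 and Krt17 are adjacent, Krt14 differed by -0.75, Krt42 by -0.27 and Krt13 by -0.78, none of them called, and Krt15, a keratin of basal and hair bulge cells, was higher by 2.31 and called. The follicle keratins leaned on oil replicate 1, without which Krt75, Krt71 and Krt15 differed by 1.33, 2.13 and 0.85 and none was called. Calls were also absent without estrogen replicate 1 for each of these 3 and without estrogen replicate 2 for Krt71 and Krt15.

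**Figure D3:**
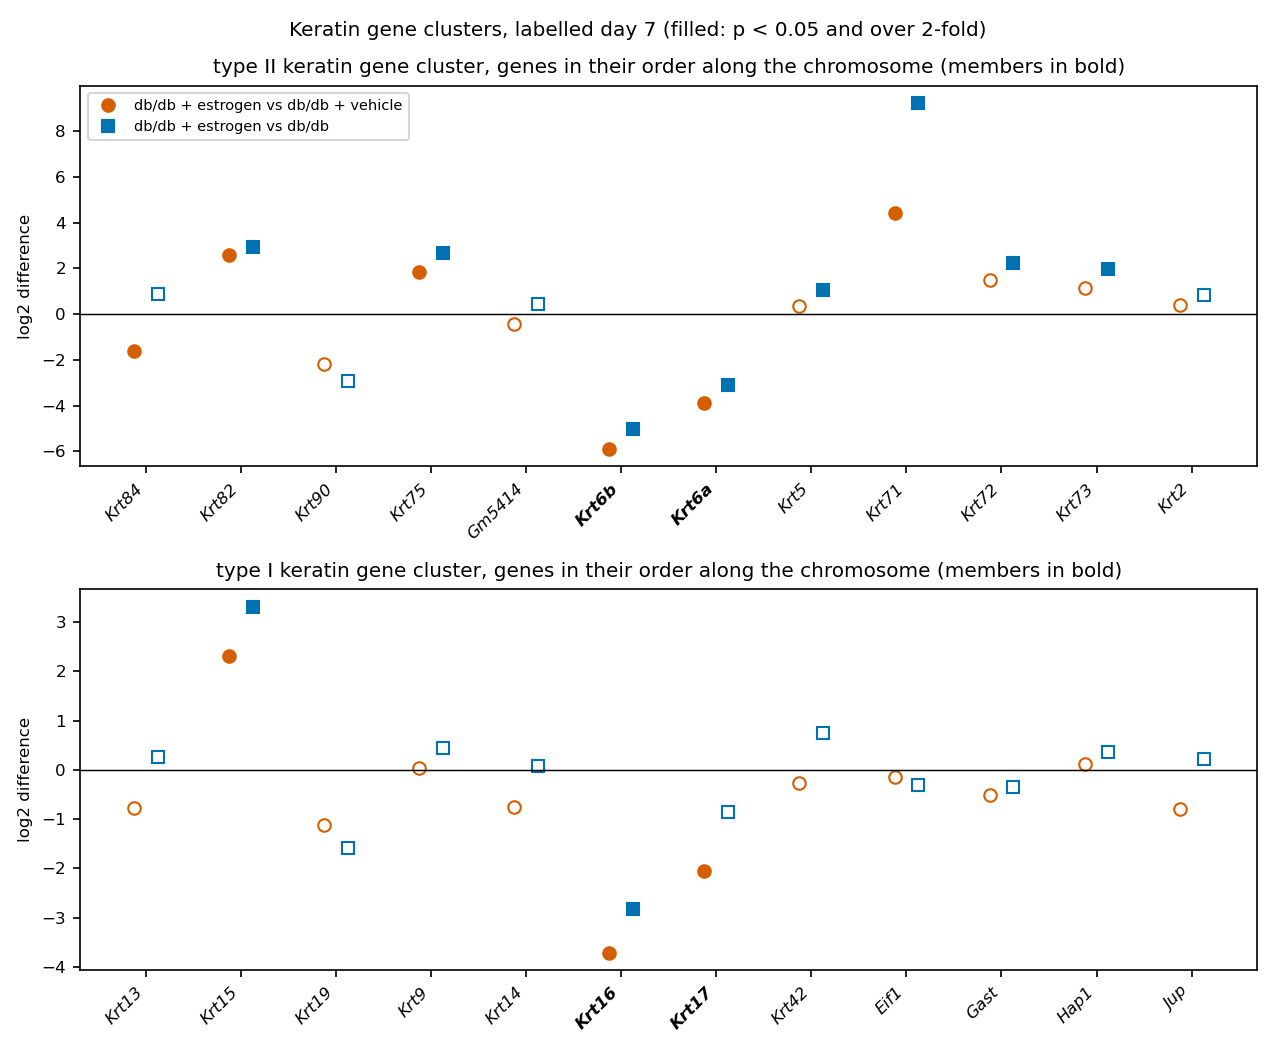
Log2 difference with estrogen, against oil (circles) and against untreated db/db (squares), on arrays labelled day 7 for protein-coding genes in RefSeq's order within the type II and type I keratin clusters, with filled points for those called. Krt6a, Krt6b, Krt16 and Krt17 lie between -5.90 and -0.85 beside neighbours such as Krt5 (0.34 and 1.06), Krt14 (-0.75 and 0.08) and Krt71 (4.40 and 9.21).

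Genes of growth factors, cytokines, their receptors and transcription factors were counted from lists, with 1 probe for each gene. The comparison was estrogen against oil on arrays labelled day 7 (over all probes the median was 0.01, 4.32% were called lower and 4.66% higher). Signalling through the EGF receptor raises Krt6 and Krt16 in culture. Of 8 genes for the receptor and its ligands, 2 were called lower, Hbegf (-2.41, adjusted p = 0.0868) and Tgfa (-2.02, adjusted p = 0.12), and the median was -0.82, while Egfr (0.13) and Areg (-0.77) were not called. Without oil replicate 1 neither ligand was called (-1.77 and -1.30), and without estrogen replicate 2 Hbegf was not (-1.57).

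Cytokines that act on keratinocytes were mostly lower. Of 16 tested, 11 were called lower and 1 higher, with a median of -2.00. Il1b, the main secreted interleukin-1, differed by -4.73 (adjusted p = 0.0386), Il19 by -4.48 (adjusted p = 0.0852) and Il6 by -3.98 (adjusted p = 0.0521), and Tslp, an epithelial alarm cytokine, was the 1 higher (1.18, adjusted p = 0.2). The total called was 7 without either estrogen array or without oil replicate 2. Tslp was not called when any of those 3 was left out, nor Il19 without estrogen replicate 1. Il1b and Il6 stayed called with each array left out, but the estrogen arrays lay far apart, and the differences were -2.95 and -2.42 without estrogen replicate 1 and -6.51 and -5.55 without replicate 2. Il19 was well above background on 1 of the 2 estrogen arrays. Of 13 cytokine receptors, 1 was called lower (Il22ra1, -1.98, adjusted p = 0.191), and it was not called when any of the 4 arrays was left out, so this count is near the share over all probes. Of 11 fibroblast and TGF-beta growth factors, Inhba, the activin subunit induced in wounds, was called lower (-3.21, adjusted p = 0.0482) and Fgf10 higher (1.92, adjusted p = 0.08).

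Of 26 listed transcription factors, 3 were called, all higher, where 4.66% of all probes were called higher. They were Esr1, which encodes the main estrogen receptor (1.38, adjusted p = 0.0672), Gli1 (1.28, adjusted p = 0.121) and Gli2 (1.21, adjusted p = 0.0402), both of the hedgehog pathway. The total was 5 without estrogen replicate 1, and Gli1 was not called without oil replicate 1 or estrogen replicate 2. Fosl1 differed by -1.34 and was not called, except without estrogen replicate 1 (-2.23), Stat3 by -0.50, Trp63 by 0.12 and Nfe2l2, the NRF2 gene, by less than 0.01.

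The keratins of normal epidermis, by contrast, gave few calls. Among 3 basal keratins Krt15 alone was called, and among 7 suprabasal keratins none was (median -0.12), with Krt1 at -1.27 and Krt10 at -0.27. Among 5 keratins of simple epithelia, Krt7 was called lower (-1.67, adjusted p = 0.224), which held when oil replicate 2 was left out and not when any of the other 3 arrays was. Of 16 desmosome and keratin linker genes, Dsc2 (-2.98), Dsc1 (-1.98) and Evpl (-1.55) were called lower and Pkp2 (1.06) higher, with a median of -0.69. Dsc2 stayed called with each array left out (-1.81 without oil replicate 1), and the other 3 were not called without estrogen replicate 2, nor Dsc1 and Pkp2 without oil replicate 2, nor Dsc1 without oil replicate 1.

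Other genes that keratinocytes switch on when activated were mostly called lower as well. The list shares S100a8 and S100a9 with the neutrophil markers and the interleukin-36 genes Il1f6 and Il1f9 with the cytokines, so these are counted under both. It also holds Sprr2f, Sprr2k, Lce3a and Mmp10, which the study had printed as lower with estrogen. The counts for this list are therefore not independent of earlier results of these data. Of 36 tested, 29 were called lower, 22 of them at the adjusted p, and 1 higher, Plau (1.11), which was not called without estrogen replicate 1, and the median was -3.54. Sprr2f was at least 1735-fold lower with estrogen, Lce3a, of the injury-induced late cornified envelope genes, at least 2211-fold, and Defb3, a beta-defensin, at least 159-fold. These 3 were not well above background on either estrogen array, so on each of these arrays the probe's own signal, or the lowest signal of any probe well above background if that was higher, was used as a ceiling. The adjusted p in limma was 0.00119 for Sprr2f and Defb3 and 0.0014 for Lce3a. S100a8, which is also made by neutrophils, differed by -5.66 (adjusted p = 0.00119), or by -4.77 without estrogen replicate 1.

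**Figure D4:**
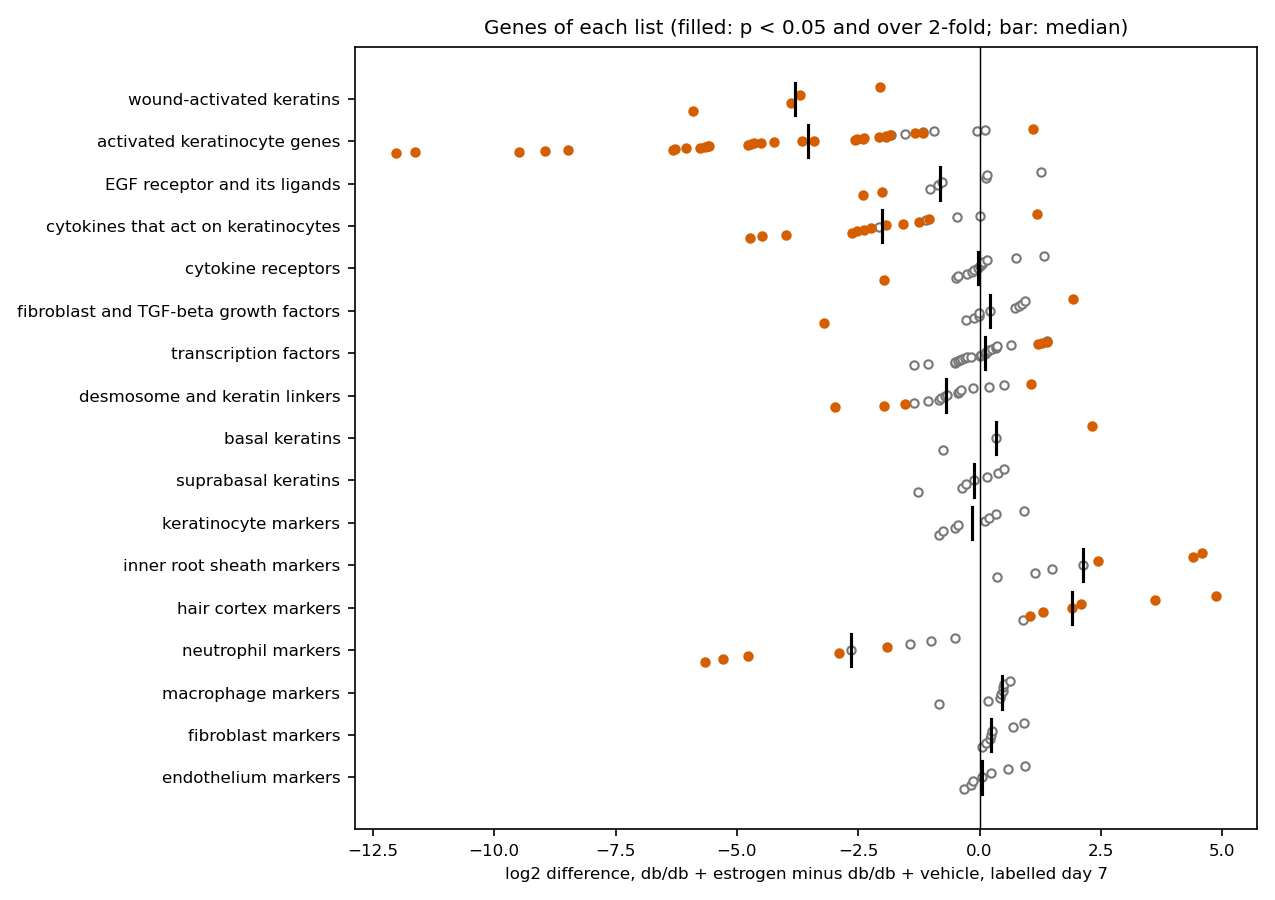
Log2 difference of each gene of a list (points, filled where called) and the median of the list (vertical bars), for db/db + estrogen minus db/db + vehicle on arrays labelled day 7. The wound-activated keratins and the activated keratinocyte genes (median -3.54, 29 of 36 called lower) lie lowest, followed by the neutrophil markers (median -2.65), and the keratinocyte markers lie near 0 (median -0.16).

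Against untreated db/db the same lists gave 27 activated keratinocyte genes called lower and 1 higher (Plau, 1.33), where 4.71% of all probes were called lower and 5.22% higher. Their median was -2.90, against 0.04 over all probes. Sprr2f was at least 341-fold lower, Lce3a at least 467-fold and Sprr2k at least 51.3-fold. Hbegf (-2.09) and Areg (-1.24) were the 2 EGF family genes called, and neither was called without estrogen replicate 2. Leaving out db/db replicate 2 ended the call of Hbegf, and leaving out db/db replicate 1 that of Areg. Between labelled days within the estrogen group, 28 of the 36 activated keratinocyte genes were called higher on arrays labelled day 14, where 3.05% of all probes were, and none lower (median 2.64, against -0.12 over all probes), with Sprr2f at least 1233-fold higher and Lce3a at least 1061-fold. Areg was higher by 2.76 (adjusted p = 0.00918), Il6 by 3.90 (adjusted p = 0.0289) and Il1b by 3.82 (adjusted p = 0.0381), of which Il6 was 2.34 and Il1b 2.04 without estrogen replicate 1 labelled day 7.

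Markers of the cell types in a wound were read beside the members. Keratinocyte markers that do not mark activation (8 genes, Krt5 the largest term of their sum, all well above background on all 16 arrays) were present in the estrogen wounds labelled day 7. None was called against oil (median -0.16), and 1 was called without estrogen replicate 2 or oil replicate 2. Against untreated db/db, 4 were called higher, where 5.22% of all probes were, and none lower (median 0.87, against 0.04 over all probes), namely Col17a1 (2.07, adjusted p = 0.00608), Trp63 (1.42, adjusted p = 0.0579), Itgb4 (1.16, adjusted p = 0.0331) and Krt5 (1.06, adjusted p = 0.0753), and 2 of them without db/db replicate 1. Krt5 was also not called without estrogen replicate 1. Krt14 differed by 0.08. Between labelled days within the estrogen group, Krt5 differed by -0.37 and Krt14 by 0.95, neither of them called, except Krt14 without estrogen replicate 2 labelled day 14 (1.31).

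Summed over the 8 keratinocyte markers, the signal was 302 and 267 times the 75th percentile in estrogen wounds labelled day 7, 280.6 and 292 with oil, 144 and 187 in untreated db/db and 283 and 226 in WT of the same label. Summed over the 4 members, it was 42.4 and 35.4 with estrogen, 602 and 310.3 with oil, 229 and 221 in untreated db/db and 335 and 400 in WT. The estrogen arrays thus had the lowest member sums of all 16 arrays and keratinocyte sums within the range of the other arrays.

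Neutrophil markers were also lower in the estrogen wounds labelled day 7. The sum of these markers was higher in untreated db/db than in WT of that label, unlike the member sum. Of 9 tested against oil, 5 were called lower, where 4.32% of all probes were (median -2.65, against 0.01 over all probes), or 8 without oil replicate 1. Against untreated db/db 8 of 9 were called lower, where 4.71% of all probes were (median -5.49, against 0.04), among them Ngp (-9.68, well above background on 1 of the 2 estrogen arrays), Ltf (-8.82) and Retnlg (-8.29). These 3 stayed called as single arrays were left out, with Ngp from -11.28 to -8.09, Ltf from -9.57 to -8.08 and Retnlg from -9.94 to -6.65. Their summed signal was 50.2 and 65.0 times the 75th percentile in estrogen wounds labelled day 7, 488 and 462 with oil, 445 and 517 in untreated db/db and 392 and 350 in WT. S100a9, which keratinocytes also make, was the largest term on the other 14 arrays, and on the estrogen arrays labelled day 7 it gave 4.05 and 18.3 of the sum, while Csf3r, the receptor for granulocyte colony-stimulating factor, gave 43.9 and 39.8. Ngp was not well above background on estrogen replicate 2 or on either WT array of that label, and Retnlg not on WT replicate 2. The study had printed Retnlg, Ngp, Ltf, Mpo and Camp as lower with estrogen, so the counts of neutrophil markers are not independent of earlier results. The part of neutrophils in the keratin result was not tested.

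**Figure D5:**
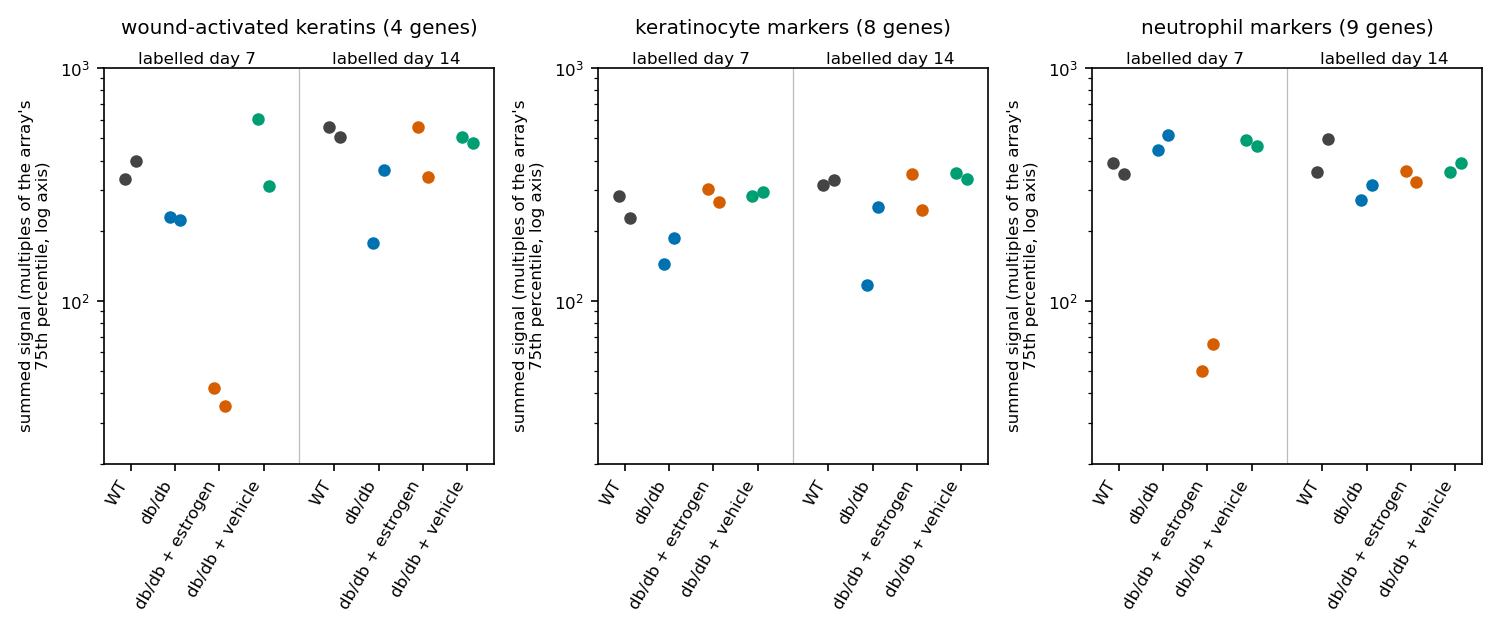
Summed signal of the 4 wound-activated keratins, of 8 keratinocyte markers and of 9 neutrophil markers on each of the 16 arrays, as multiples of the array's 75th percentile on a log axis, by treatment and labelled day. In estrogen wounds labelled day 7 the members (42.4 and 35.4) and the neutrophil markers (50.2 and 65.0) were lowest, and the keratinocyte markers (302 and 267) were not.

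In wounds labelled day 14, where Krt17 was lower in untreated db/db, keratinocyte markers were also called lower. Between untreated db/db and WT, 5 of 8 were called lower, where 15.6% of all probes were (median -1.28, against -0.12 over all probes), among them Dsg3 (-1.65, adjusted p = 0.0196), Col17a1 (-1.36, adjusted p = 0.0176) and Itgb4 (-1.29, adjusted p = 0.0103), with Krt5 at -0.85 and Krt14 at -0.92, both called only without db/db replicate 2 (-1.35 and -1.59). The count was 2 without db/db replicate 1, where Itgb4 (-0.97) was not called, and 3 without WT replicate 1. With oil against untreated db/db, 5 were called higher, where 5.31% of all probes were (median 1.46, against 0.06 over all probes), led by Trp63 (1.80), Dsg3 (1.59) and Col17a1 (1.52), and 3 without db/db replicate 1. The part of the amount of keratinocytes in the Krt17 differences was not tested. The summed keratinocyte signal was 116 and 252 times the 75th percentile in untreated db/db labelled day 14 and 314 and 329 in WT.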

How the data were processed

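RNA from skin wounds was hybridized to 1-colour Agilent mouse arrays, 16 in all, and each array was put in its group by the label of the sample. The authors deposited scanner files with an intensity for each spot, background-subtracted by Feature Extraction 11.0.1.1 (per the submitters' processing notes), and a series matrix with a ratio for each probe, made in GeneSpring 12.1, which divides the intensity by the 75th percentile of the array. The study mentions 3 filters on that matrix that it does not name. Deposited marks gave the spots that were saturated (0 on every array), outlying (90 to 309 spots left out) or well above background (70.1% to 79.0% of probes). The 75th percentile ranged from 1091 to 2548, and the number of arrays limits the precision.

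Control spots were left out, spots of a probe were averaged, and the log2 intensity minus the array's log2 75th percentile was used. Of 39429 probes, 27421 were named by 1 RefSeq symbol, and none by several. A model with 1 coefficient for each group was fitted to all 16 arrays with limma 3.58.1 in R 4.3.3 (residual df 8), and probes were tested where either group of a comparison had both of its arrays well above background, in 16 comparisons and 4 interactions. Tables and figures were made with Python 3.11.15, pandas 2.3.3 and matplotlib 3.10.9, and the fit was tested on simulated data. The text names every member probe, up to 3 called genes of the largest fold change in each direction of a list, genes with a role in keratin regulation, and the 5 genes most like each member. The fold used for this order was the fitted one, also where only a lower bound is printed. A gene left unnamed can therefore exceed a printed bound. With estrogen labelled day 7, Sprr2e did so (497-fold lower against oil and 116-fold against untreated db/db). A few genes in the keratin clusters were named after their values were seen. The members, the 21 gene lists and the tests were chosen with earlier results of these data known.

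The labelled days were checked against the study's printed fold changes between db/db and WT. Of 40 such values, 40 matched a probe to within 1% on arrays of the other labelled day and 0 on arrays of the same labelled day, and the files do not show which was exchanged. The days are given as labelled.

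The alternatives were normexp background correction (offset 50, on the deposited median spot and background intensities), quantile normalization, no filter, a filter on all arrays compared, the series matrix, a fit of the compared arrays alone, the slide as a block, fixed or random (statmod 1.5.0), the replicate number as a block, each array left out, and correlations within a labelled day. Crossed replicate numbers and correlations without the estrogen arrays labelled day 7 were added after seeing the data. On arrays labelled day 7 each slide held 1 replicate of every group, and on those labelled day 14 both untreated db/db arrays shared 1 slide, both WT arrays the other, and the treated groups lay on both.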

Additional observations from a re-analysis of the deposited data

Results flagged for a closer look

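The effect of estrogen against untreated db/db on Krt6b, at probe A_66_P101935, passed the interaction test between the labelled days in the fit of all arrays. The difference labelled day 14 minus that labelled day 7 was 5.77 on the log2 scale (SE 0.76, adjusted p = 0.0395 in limma). It no longer passed the adjusted p with the slide as a fixed block, the replicate block, quantile normalization, no filter, the filter on all arrays or only the compared arrays, nor without any of 4 single arrays (estrogen replicate 1 of either labelled day, db/db replicate 2 labelled day 7 and db/db replicate 1 labelled day 14). The level was lower with estrogen on both arrays labelled day 7 (0.49 and 2.00, against 6.36 and 6.21 in db/db), while on arrays labelled day 14 it was 7.81 and 7.14 with estrogen and 6.23 and 7.26 in db/db. Since the labelled days were scanned apart, day and scan cannot be told apart.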

How the results depend on the processing

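Over the alternatives other than leaving out an array, 285 of 290 differences at member probes kept their direction and their side of the threshold, 5 lost the call, and none changed sign. When single arrays were left out, 125 of 136 did so, 9 lost the call and 2 gained it, and none changed sign. The count of 285 was partly fixed in advance. A changed filter cannot move a difference or its unadjusted p at probes above background on every array. The series matrix holds nearly the same values. The fit of the compared arrays and the replicate block leave the difference between group means as it was, so its sign could not change there. The number of member probes called for oil against untreated db/db labelled day 7 (1) was 0 with quantile normalization. With only the arrays compared, it was 1 (of 3) for db/db against WT labelled day 14 and 0 (of 1) for estrogen against db/db labelled day 14. The number past the adjusted p for estrogen against db/db labelled day 7 was 4 with normexp and 2 otherwise. For the interaction of estrogen against db/db (1 probe), normexp gave 2, and quantile normalization, no filter, the filter on all arrays, only the arrays compared and the slide as a fixed block each gave 0, and normexp gave 2 for that against oil (0). The cause of these shifts was not tested. Of 60 correlations with the nearest genes, computed within each labelled day or without the estrogen arrays labelled day 7, 49 moved by less than 0.1.

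With single arrays left out, the number of member probes called ranged from 0 to 5 for oil against db/db labelled day 7, 0 to 1 for oil against WT labelled day 7, 1 to 3 for db/db against WT, 0 to 2 for estrogen against db/db and 1 to 3 for oil against db/db labelled day 14, 0 to 1 between days in WT and in db/db + vehicle, and 0 to 2 for the interaction against db/db and against oil. For genes near no change, the sign turned as arrays were left out. For estrogen against oil labelled day 7, Egfr ranged from -0.0081 to 0.27, Nfe2l2 from -0.0657 to 0.0684 (-0.00584 with normexp), Trp63 from -0.11 to 0.35, Krt10 from -0.83 to 0.29 and Krt42 from -0.609 to 0.0605. Krt14 ranged from -0.10 to 0.26 for estrogen against db/db.

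The replicate numbers were not taken as a pairing. Over 25909 probes and 12 comparisons, r between same-numbered deviations ran from -0.45 to 0.39, above 0.1 in 3 and below -0.1 in 7, and on arrays labelled day 7 the number was also the slide. With the replicate number as a block, the interaction against db/db had 0 probes past the adjusted p, and no number of member probes called within a labelled day moved. Crossed numbers moved none of these either. The slide as a random block had a correlation of -0.092. Quantile normalization moved the median of all probes by 0.19 for db/db against WT labelled day 14, and by 0.13 to 0.15 for estrogen or oil against WT labelled day 14 and between days in the db/db groups. Normexp moved it by -0.14 for db/db and for oil against WT labelled day 7, and by -0.11 for oil against WT labelled day 14 and between days in WT. Depth limits nothing at the member probes, which were above background on every array.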

Other observations

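Inner root sheath and hair cortex genes were called higher in the estrogen wounds labelled day 7 than in the other db/db wounds, while against WT no inner root sheath gene was called. Of 7 inner root sheath genes tested, 6 were called higher against untreated db/db (5.22% of all probes) and none lower (median 4.46), with Krt25 at least 388-fold higher, both db/db arrays being below the background mark, Krt71 (well above background on 1 of the 2 db/db arrays) higher by 9.21 on the log2 scale (adjusted p = 0.0105 in limma) and Krt28 by 5.04 (adjusted p = 0.024). Against oil (4.66% of all probes called higher), 3 of the 7 were called higher (median 2.14) and 6 of 7 hair cortex genes (median 1.91), led by Krt33a (4.87, well above background on 1 of the 2 oil arrays), Krt35 (3.62) and Krt33b (2.09). None of the inner root sheath genes and 1 of the cortex genes was called against oil without oil replicate 1. The inner root sheath count was 1 without either estrogen array and 5 without oil replicate 2, and the cortex count was 3 without estrogen replicate 2. Against WT of the same label (3.64% of all probes called higher), the inner root sheath median was 0.57, and 3 of 7 cortex genes were called higher (median 1.06), or 1 without estrogen replicate 2. Without WT replicate 1 or 2, the inner root sheath count was 2 or 4. The WT arrays lay far apart, with summed inner root sheath signals of 1.84 and 33.9 times the 75th percentile beside 10.3 and 13.7 with estrogen, and summed cortex signals of 1.26 and 5.09 beside 2.97 and 3.19. Between labelled days within the estrogen group, Krt71 (-8.05) and Krt25 (-7.90, well above background on 1 of the 2 arrays labelled day 14) were lower on arrays labelled day 14, as were Krt15 (-2.63) and Krt75 (-2.02). The call of Krt75 was absent without estrogen replicate 2 labelled day 14, and that of Krt15 without this array, estrogen replicate 1 labelled day 14 or estrogen replicate 1 labelled day 7.

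Of 8 sebaceous gene markers, Scd3 (1.73) and Awat2 (1.30) were called higher against oil on arrays labelled day 7, where 4.66% of all probes were. Dgat2l6 was called lower (-3.10, or -2.00 without oil replicate 2), where 4.32% of all probes were. Awat2 was not called without estrogen replicate 1, estrogen replicate 2 or oil replicate 1. No marker of macrophages (8 tested), fibroblasts (7), adipocytes (6), skeletal muscle (7) or endothelium (7) was called in this comparison, beside the same shares of all probes.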
